A study of Mus musculus with 6 samples.

Results

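Microglia of the paraventricular nucleus (PVN), the hypothalamic nucleus whose neurons start the hormonal stress response, were selected from 2 droplet single-cell RNA libraries. A barcode was kept with at least 200 detected genes and at most 25% of its unique molecular identifiers (UMIs, each standing for 1 captured RNA molecule) from mitochondrial genes. It was then taken as microglial with at least 3 UMIs of P2ry12, Tmem119 and Cx3cr1 together and under 6 UMIs of the neuronal genes Snap25, Syt1, Stmn2 and Rbfox3. This gave 413 cells of the 7177 PVN cells that passed the cell filters, and of 23083 barcodes in the whole series. The stress library held 182 of them and the control library 231.

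Microglia are the resident macrophages of the brain. They derive from yolk sac progenitors, depend on the growth factor receptor Csf1r, and survey the tissue with processes whose movement follows the purine receptor P2ry12 and the fractalkine receptor Cx3cr1. When their receptors for damage or microbial products signal, the transcription factor NF-kB induces chemokines, cytokines and its own inhibitors, among them Nfkbia. Heat-shock genes encode chaperones that refold proteins and are induced by the factor Hsf1. Microglia also carry the glucocorticoid receptor Nr3c1, through which the hormones of the stress response can reach them.

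The stress library came from C57BL/6 mice aged 10 weeks after 21 days of chronic social defeat, in which a mouse is confronted repeatedly with an aggressive one. The control library came from C57BL/6 mice of the same age without defeat, and no genetic change was listed for either group. Each library was 1 pool of tissue from 5 mice, perfused with cold saline and dissociated with papain for 35 min at 37 °C, so the values below describe 2 pools and no test between conditions was possible. Levels before dissociation were not measured, so RNA made during it cannot be told apart from RNA already present in the tissue. The pituitary and adrenal libraries of the study, prepared under both conditions, entered only as a source of other macrophages. All intervals are exact 95% intervals that cover the error of counting molecules or cells, not the spread between mice. The intervals of CPM and of ratios do not cover the spread between cells either, so a few cells can move a value past its interval.

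Microglia made up 5.11% (4.41 to 5.89) of the cells that passed the filters in the stress library and 6.39% (5.61 to 7.23) in the control library. Dissection and dissociation can set such shares. The stress microglia held 768115 UMIs with a median of 3725.5 per cell (2559 to 16863), and the control microglia 1124992 UMIs with a median of 4439.0 (2766 to 19075). The median cell had 1659.5 detected genes in the stress library and 1810.0 in the control library. No barcode sequence was shared between the stress and control microglia, although 16 were shared between the whole PVN libraries, and the microglia of either library shared 0 to 3 with any pituitary or adrenal library.

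The choice of cells rested on a wide gap in marker counts. The summed UMIs of the 3 marker genes had a median of 27 per cell in stress microglia and 26 in control microglia, and 176 of 182 and 225 of 231 cells had 10 or more. Just inside the limit, 1 stress cell had 3 marker UMIs and 1 had 4, and 2 control cells had 4. Just outside it, 2 stress barcodes and 3 control barcodes had 2 marker UMIs. The limit on neuronal UMIs left out 7 barcodes of each library that had enough marker UMIs. The chains of complement C1q (C1qa, C1qb and C1qc), which macrophages make and the selection did not use, summed to 83 and 84 UMIs in the stress cells just inside the limit and to 31 and 147 in the control cells. Just outside it they summed to 78 and 85 UMIs in the stress barcodes and to 74, 1 and 143 in the control barcodes.

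**Figure D1:**
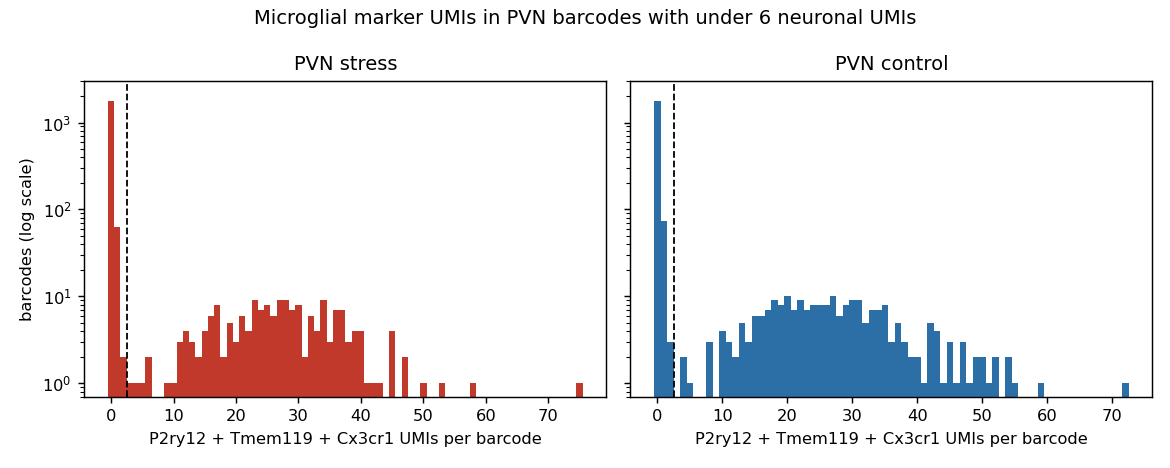
Marker UMIs per barcode (sum of P2ry12, Tmem119 and Cx3cr1) against the number of barcodes on a log scale, for PVN barcodes with under 6 neuronal UMIs, in the stress library (left) and the control library (right). The dashed line is the limit of 3 UMIs; in both libraries few barcodes lie between the large group at 0 or 1 UMI and the microglia, whose medians are 27 and 26 UMIs.

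Genes outside the selection rule also set these cells apart. The UMIs of the selected cells were summed per library and scaled to their total (CPM, UMIs of a gene in 1000000 UMIs). Of 1413 genes at 100 CPM or more in the microglia of both libraries, the 15 with the largest ratio over all other PVN cells included 3 genes of the selection rule and the microglial lectin gene Siglech, the selectin ligand gene Selplg and the lysophosphatidylserine receptor gene Gpr34. Siglech (ENSMUSG00000051504, chromosome 7, 55768178 to 55778925, plus strand) stood at 821 CPM in stress microglia and 766 CPM in control microglia, against 1.52 and 1.24 CPM in the other PVN cells of the stress and the control library. The others were Susd3, Bin2, Cd180 (a Toll-like receptor relative), Itgam (the integrin chain CD11b), Clec5a, the cell-survival genes Bcl2a1a and Bcl2a1b, and the cytokine genes Il1a and Tnf. Their ratios ranged from 437 for Tnf to 631 for P2ry12. Because the cells were chosen by 3 of these genes, the ratios are a description of the selection. Bcl2a1a and Bcl2a1b belong to a family of near-identical copies whose reads may be split between them.

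Sall1, a transcription factor gene that sets brain microglia apart from other macrophages, was at 93.7 CPM (73.3 to 118) in stress microglia and 96.9 CPM (79.6 to 117) in control microglia. Macrophage barcodes of the pituitary (at least 10 UMIs of C1qa, C1qb and C1qc together and at least 3 of Tyrobp and Fcer1g) had 10.7 CPM in the stress and 23.8 CPM in the control library, and those of the adrenal had no Sall1 UMI. Siglech, given above in microglia, was at 137 CPM in stress and 196 CPM in control pituitary macrophage barcodes and at 1.53 and 2.30 CPM in adrenal ones. The antigen-presenting genes ran the other way. Cd74, the invariant chain of class II molecules, was at 237 CPM in stress microglia and 223 CPM in control microglia, while pituitary macrophage barcodes had 19409 and 27787 CPM. H2-Aa, a class II chain, had 0 UMIs in stress microglia and 3 in control microglia.

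**Figure D2:**
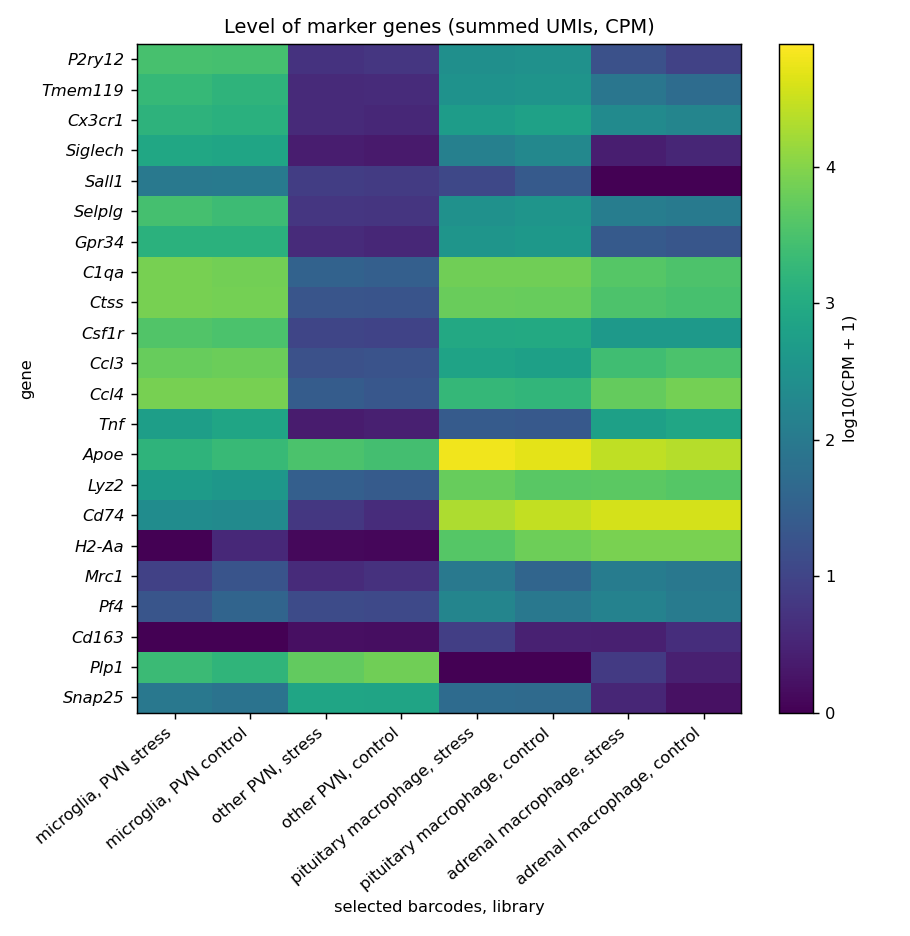
Level of 22 marker genes (rows) as log10 of CPM plus 1 in microglia, other PVN cells and macrophage barcodes of the pituitary and adrenal, with the stress library left of the control library in each pair. Sall1 and Siglech are highest in the 2 microglial columns, and Cd74 and H2-Aa are highest in the macrophage barcodes.

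Larger amounts of RNA of other cell types were carried by a minority of the microglia, unevenly between the libraries, while UMIs of the neuropeptide gene Oxt were found in a majority of cells. At least 10 UMIs of a marker list of another cell type were carried by 12 stress cells (6.59%) and 18 control cells (7.79%). Their median UMI counts were 7070 and 8087. The lists counted were those of oligodendrocytes, their precursors, astrocytes, endothelial, mural, ependymal and blood cells. The neuronal, neuropeptide and border macrophage lists were not counted, and at least 10 neuropeptide UMIs were held by 2 stress and 7 control cells. Doublets were not removed. The 5 endothelial markers (Cldn5, Flt1, Pecam1, Itm2a, Ly6c1) summed to 45 UMIs in stress microglia and 636 in control microglia, of which 3 control cells held 91.4%. The mural markers summed to 24 and 262 UMIs, the ependymal markers to 40 and 194, and the oligodendrocyte markers to 2891 and 3305. A single stress cell held 2043 of the 2107 haemoglobin UMIs, against 27 haemoglobin UMIs in control microglia.

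Other blood cells left little trace. All 4 neutrophil and all 6 lymphocyte markers were at 0 in both libraries, and the 5 monocyte markers, among them Ccr2 and Ly6c2, summed to 2 UMIs in stress and 4 in control microglia. The 8 markers of border macrophages, the macrophages of meninges and vessels, summed to 85 and 172 UMIs. That was 111 CPM in stress and 153 CPM in control microglia, against 30.1 and 30.3 CPM in the other PVN cells. The highest stress cell held 30 of these UMIs and the highest control cell 93. Whether such cells were border macrophages was not tested. Cd163 was at 0 in both libraries and Lyve1 at 0 in the stress library, and 4 cells of each library had 3 or more such UMIs. Values without the cells that carry other cell types (170 stress and 213 control cells left) are given below where they bear on a result. They leave out the carriers counted above, so cells with only neuropeptide or border macrophage RNA stay in.

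The study set chronic stress against control in the same tissue. A gene counted as measured with 50 or more UMIs over the microglia of both libraries, which 4965 genes met. Stress and control were compared as the log2 of the stress over the control CPM, with 0.5 UMI added to each sum. The median log2 ratio was 0.06, with quartiles of -0.16 and 0.26, so list medians are to be read against 0.06. Of the measured genes, 5.42% were 1.5-fold or more higher in stress microglia and 3.89% were 1.5-fold or more lower. A counting interval above 0 was found for 7.94% and one below 0 for 6.71%, and 57.0% of the genes were higher and 43.0% lower by any amount. Among all other PVN cells the median of the same genes was 0.00.

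Heat-shock genes were the list with the highest median. Of 20 measured heat-shock genes, 18 were higher in stress microglia, 7 of them by 1.5-fold or more, and 13 had an interval above 0, set beside the 57.0%, 5.42% and 7.94% of all genes. Genes of the lysosome (19 of 19 higher), the unfolded protein response (10 of 13) and microglial sensing receptors (21 of 25) were also mostly higher, although for the receptors only 15 of 25 were higher without the carriers of other cell types. NF-kB target genes (13 of 18 lower), chemokines and cytokines (14 of 19 lower), immediate-early genes (15 of 21 lower) and the genes encoded by the mitochondrial genome (11 of 11 lower) were mostly lower, beside 43.0% of all genes. The plot of all 21 lists shows the medians beside the range of all genes.

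**Figure D3:**
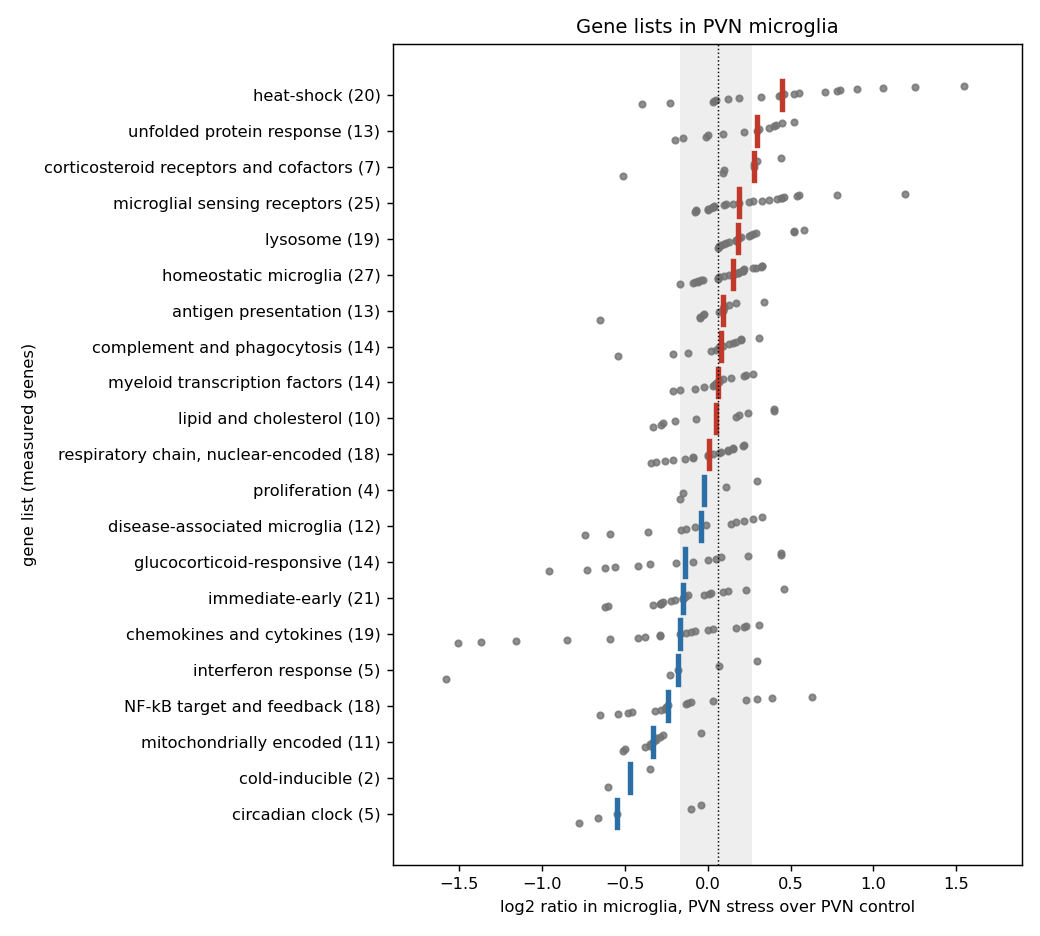
Log2 ratio of stress over control in microglia for the measured genes of each list (grey points, number in parentheses), with the list median as a bar (red above 0, blue below 0), the median of all 4965 genes as a dotted line and their quartiles as a grey band. Heat-shock genes have the highest median, 0.45, and circadian clock genes the lowest, -0.55, on 5 genes.

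The genes by which microglia are recognised in the healthy brain differed by small amounts, but more often upward than all genes. Of 27 homeostatic genes, 20 were higher in stress microglia, beside 57.0% of all genes, and none by 1.5-fold. Intervals lay above 0 for 13 and below 0 for 1, beside 7.94% and 6.71% of all genes. The median was 0.15, against 0.06 for all genes and 0.16 for the same genes in the other PVN cells. The surface protein gene Selplg was at 2841 CPM (2723 to 2962) in stress microglia and 2259 CPM (2172 to 2348) in control microglia, a log2 ratio of 0.33 (0.25 to 0.41). Olfml3, a secreted matrix protein gene, had a log2 ratio of 0.33 (0.21 to 0.46), and the lens crystallin gene Crybb1 the lowest of the list, -0.17 (-0.36 to 0.01). Csf1r was at 3634 CPM in stress and 3214 CPM in control microglia. The cystatin gene Cst3, an inhibitor of cysteine proteases, was at 60918 CPM and 63613 CPM.

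Myeloid transcription factors differed little, with a median of 0.06 over 14 measured genes. Spi1, the master factor of the myeloid lineage, was at 572 CPM (519 to 628) in stress microglia and 603 CPM (558 to 650) in control microglia. Irf8, needed for microglial development, was at 531 CPM and 456 CPM, a log2 ratio of 0.22 (0.03 to 0.41). Cebpa had the highest value, 0.27 (0.03 to 0.50), or 0.20 (-0.05 to 0.44) without the carriers of other cell types, and Mef2a the lowest, -0.21 (-0.46 to 0.04). None of the 14 was 1.5-fold apart.

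Among the 25 sensing receptors, the median was 0.19, and 2 were 1.5-fold or more higher in stress microglia, beside 5.42% of all genes. P2rx4, an ATP-gated channel gene, was one of them, at 88.5 CPM (68.7 to 112) in stress and 51.6 CPM (39.1 to 66.6) in control microglia, with a log2 ratio of 0.78 (0.25 to 1.31). The receptor gene for platelet-activating factor, Ptafr, had 0.54 (0.17 to 0.91), the tumour necrosis factor receptor gene Tnfrsf1a 0.46 (0.10 to 0.82) and the complement receptor gene C5ar1 0.42 (0.21 to 0.63). The lipid and apolipoprotein receptor gene Trem2 was at 1538 CPM in stress and 1535 CPM in control microglia. With cells that carried other cell types left out, the median of the sensing receptors was 0.16 and 15 of 25 were higher. The microbial sensors Tlr2 and Tlr7 and the co-receptor Cd14 had log2 ratios of -0.07, -0.08 and -0.07.

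All 19 measured lysosomal genes were higher in stress microglia, where 57.0% of all measured genes were, and none by 1.5-fold or more. The median was 0.18 and 10 intervals lay above 0, beside 7.94% of all genes. The cysteine protease genes Ctsc and Ctsh were the highest. Ctsc (chromosome 7, 88278085 to 88310888, plus strand) was at 743 CPM (684 to 807) in stress microglia and 498 CPM (457 to 541) in control microglia, a log2 ratio of 0.58 (0.41 to 0.75). Ctsh was at 880 CPM (815 to 949) and 613 CPM (568 to 661), a log2 ratio of 0.52 (0.37 to 0.68). In other PVN cells the median of the same genes was 0.05. Without the cells that carried other cell types, the median was 0.17 and again 19 of 19 were higher.

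Complement and phagocytosis genes had a median of 0.08 over 14 measured genes. C1qa, a chain of the protein that starts the classical complement cascade, was at 7921 CPM in stress microglia and 7055 CPM in control microglia, a log2 ratio of 0.17 (0.12 to 0.22). Fcgr1, a receptor for antibody, had the highest value at 0.31 (0.06 to 0.57). Gas6, the ligand that bridges dying cells to the receptor Mertk, had the lowest at -0.54 (-0.98 to -0.12), with 68 UMIs in stress and 145 in control microglia, and -0.35 (-0.83 to 0.10) without the carriers of other cell types.

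The 2 heat-shock genes with the largest ratios encode inducible Hsp70, the chaperone that cells make after protein damage. Hspa1a (ENSMUSG00000091971, chromosome 17, 34969190 to 34972156, minus strand) was at 1992 CPM (1893 to 2094) in stress microglia and 679 CPM (632 to 729) in control microglia. That is a log2 ratio of 1.55 (1.43 to 1.68), or 2.93-fold, the first gene of the 12 highest over all 4965 when ranked by the lower bound of the interval. Hspa1b was at 74.2 CPM (56.2 to 96.1) and 31.1 CPM (21.7 to 43.3), a log2 ratio of 1.25 (0.62 to 1.9). Hspa1a and Hspa1b are near-identical copies, so how the counting divided reads between them is uncertain. In the other PVN cells Hspa1a was at 749 CPM in stress and 481 CPM in control, a log2 ratio of 0.64, and Hspa1b had 0.67.

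The co-chaperones and partners of Hsp70 followed in smaller measure. Hsph1, an Hsp110 that exchanges the nucleotide of Hsp70, was at 91.1 CPM (71.0 to 115) in stress microglia and 43.6 CPM (32.2 to 57.6) in control microglia, a log2 ratio of 1.06. Hspe1, the lid of the mitochondrial chaperonin, was at 345 CPM (305 to 389) and 198 CPM (173 to 226), a log2 ratio of 0.80 (0.54 to 1.06). Its chaperonin partner Hspd1 was at 126 CPM and 123 CPM, a log2 ratio of 0.04. Dnaja1, an Hsp40 that hands clients to Hsp70, had a log2 ratio of 0.71 (0.50 to 0.92), while Dnajb1, another Hsp40, had 0.12 (-0.16 to 0.40) in microglia and 0.47 in the other PVN cells. After each cell was thinned to 1000 UMIs, 26.9% of stress and 19.0% of control microglia had an Hspe1 UMI and 39.0% and 24.7% a Dnaja1 UMI. PVN barcodes without a marker UMI, among them cell types that use both genes, had 30.1% and 27.9% for Hspe1 and 39.4% and 37.5% for Dnaja1, so nothing is read from these shares. At full depth 70.3% and 55.8% of the microglia had an Hspe1 UMI and 81.9% and 71.0% a Dnaja1 UMI.

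The cytosolic Hsp90 genes Hsp90aa1 and Hsp90ab1 had log2 ratios of 0.44 (0.29 to 0.59) and 0.32 (0.20 to 0.45), and the constitutive Hsp70 gene Hspa8 had 0.43 (0.34 to 0.51). Leaving out the carriers of other cell types gave 0.69 (0.51 to 0.86), 0.43 (0.29 to 0.56) and 0.40 (0.31 to 0.49), in the same order. Hspb1, a small heat-shock protein gene, had the lowest value at -0.40 (-0.93 to 0.10), and 5 control cells held 86.6% of the UMIs it had in that library. Its direction turned without the carriers of other cell types, to 1.55 (0.82 to 2.35), on 48 UMIs in stress and 23 in control microglia. The median over the 20 measured heat-shock genes was 0.45, against 0.20 for the same genes in the other PVN cells. It was 0.39 in macrophage barcodes of the pituitary (13 measured genes) and 0.48 in those of the adrenal (22 measured genes). Without the cells that carried other cell types the median in microglia was 0.62, with 18 of 20 higher.

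**Figure D4:**
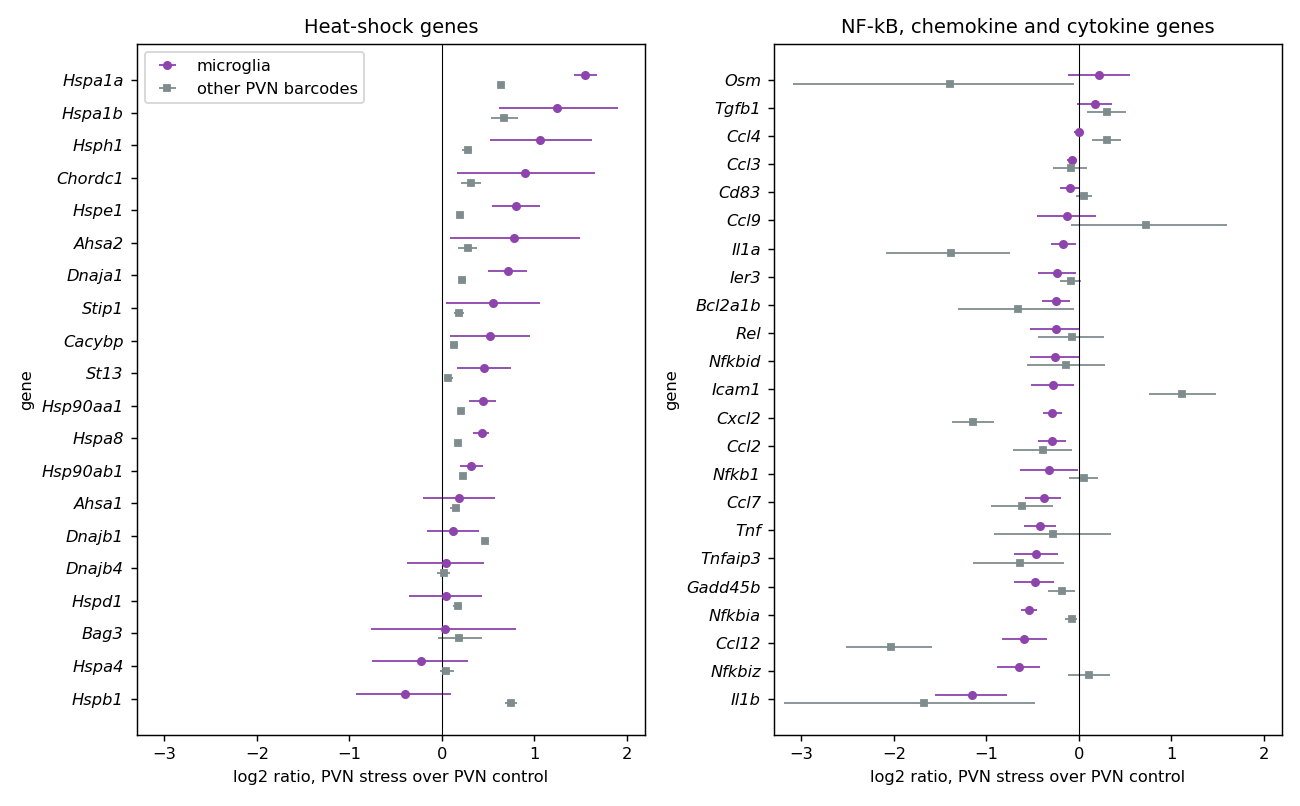
Log2 ratio of stress over control with exact 95% counting intervals for the 20 measured heat-shock genes (left) and for the measured NF-kB, chemokine and cytokine genes with 300 or more UMIs in microglia (right), in microglia (purple circles) and in all other PVN cells (grey squares). Hspa1a lies at 1.55 in microglia and 0.64 in other PVN cells; Nfkbia lies at -0.54 and -0.08. The lower ends of intervals of other PVN cells are drawn no further than -3.2.

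The sequences before the start of these genes are shown because heat-shock factors bind repeats of the letters GAA and NF-kB binds a longer site. Promoter sequences are from RefSeq on GRCm38.p6, 150 bases up to the base before the start, 5′ to 3′ on the strand of the gene. Capitals mark GAANNTTC or TTCNNGAA in the first 3 and, in Nfkbia, the site GGGNNTTTCC read on the opposite strand. The windows lie at chr17:34972157-34972306 (minus strand) for Hspa1a, chr1:55087998-55088147 (plus strand) for Hspe1, chr4:40722318-40722467 (plus strand) for Dnaja1 and chr12:55492648-55492797 (minus strand) for Nfkbia. The window of Hspa1b is the same as that of Hspa1a in 149 of 150 bases and is not printed. Only windows that held a match were chosen for printing, and for Dnaja1 this was 1 of 3 annotated starts.
Hspa1a: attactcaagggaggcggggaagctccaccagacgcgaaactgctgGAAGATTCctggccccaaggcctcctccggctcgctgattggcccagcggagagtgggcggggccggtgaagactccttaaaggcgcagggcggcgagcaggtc
Hspe1: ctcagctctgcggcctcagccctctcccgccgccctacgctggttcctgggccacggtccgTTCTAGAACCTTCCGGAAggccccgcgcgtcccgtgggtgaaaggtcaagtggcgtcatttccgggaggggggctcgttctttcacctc
Dnaja1: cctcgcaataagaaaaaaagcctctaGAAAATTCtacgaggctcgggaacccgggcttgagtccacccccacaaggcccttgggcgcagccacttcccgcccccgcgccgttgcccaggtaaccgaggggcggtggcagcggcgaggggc
Nfkbia: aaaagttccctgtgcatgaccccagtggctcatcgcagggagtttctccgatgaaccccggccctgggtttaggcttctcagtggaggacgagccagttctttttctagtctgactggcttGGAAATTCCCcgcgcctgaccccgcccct

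Over windows of 300 bases (250 before the start and 50 after), 16 of the 20 measured heat-shock genes matched a window, and a gene counted if any of its windows held the letters on either strand. GAANNTTC was found in 9 of 16 (56.2%), against 9.04% of 27025 genes counted in the same way (7.86% of their 32851 windows). It or TTCNNGAA, with which it can overlap, was found in 10 of 16 (62.5%), against 17.0% of all genes (15.1% of windows). Both forms read the same on both strands. GGGNNTTTCC was found in 3 of 14 matched NF-kB list genes (Nfkbia, Rel and Tnfaip3) and in 4 of 12 matched chemokine and cytokine genes (Ccl9, Cxcl1, Cxcl2 and Il16), against 1.89% of all genes (1.63% of windows). Hspe1 and Dnaja1, each with a match, had log2 ratios of 0.80 and 0.71. Bag3 and Hspd1, each also with a match, had 0.03 and 0.04, and Hspb1, with a match too, -0.40, or 1.55 without the carriers of other cell types. The windows of the other Dnaja1 starts held neither heat-shock form, and those of Il1b, Tnf and Ccl3 held no GGGNNTTTCC. A match of letters is not evidence of binding.

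Genes of the unfolded protein response, which relieves the endoplasmic reticulum of misfolded proteins, had a median of 0.30 over 13 measured genes, against 0.06 in the other PVN cells. The lumenal chaperone gene Hspa5 was at 1111 CPM (1037 to 1188) in stress microglia and 896 CPM (842 to 953) in control microglia, a log2 ratio of 0.31 (0.18 to 0.44). The disulfide isomerase gene Pdia6 had the highest value, 0.52 (0.29 to 0.76), followed by Xbp1, the transcription factor of 1 branch of the response, with 0.45 (0.15 to 0.74). Hsp90b1, Calr and Pdia3, which fold and check new proteins, had 0.41, 0.40 and 0.37. Atf4, the factor of the branch that slows translation, had -0.20 (-0.53 to 0.12). None of the 13 genes was 1.5-fold apart. The median was 0.35 without the carriers of other cell types.

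NF-kB target and feedback genes were mostly lower in stress microglia. The median was -0.24 over 18 measured genes, of which 13 were lower and 8 had an interval below 0, beside 43.0% and 6.71% of all genes. Past 1.5-fold were 1 lower gene, Nfkbiz, and 1 higher gene, Ptgs2, beside 3.89% and 5.42% of all genes. In the other PVN cells the median was -0.02. Nfkbia, the inhibitor that NF-kB induces to end its own signal (ENSMUSG00000021025, chromosome 12, 55489410 to 55492647, minus strand), was at 1975 CPM (1877 to 2077) in stress and 2870 CPM (2772 to 2971) in control microglia. Its log2 ratio was -0.54 (-0.63 to -0.45). Nfkbiz, a nuclear member of the inhibitor family that acts on secondary response genes, was at 281 CPM (245 to 321) and 443 CPM (405 to 483), a log2 ratio of -0.65 (-0.89 to -0.42). Gadd45b, a stress-signalling adaptor gene, had -0.48 (-0.70 to -0.27) and Tnfaip3, the deubiquitinase A20 that restrains the pathway, -0.46 (-0.70 to -0.23).

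The subunits of the factor itself were mixed. Nfkb1 had a log2 ratio of -0.32 (-0.64 to -0.01) and Rel -0.25 (-0.53 to 0.01), while Rela had 0.03 (-0.43 to 0.47) and Relb 0.39 (-0.24 to 1.02). Ptgs2, the inducible cyclooxygenase gene, was the highest of the list at 0.63 (-0.07 to 1.33), on 38 UMIs in stress and 36 in control microglia. After each cell was thinned to 1000 UMIs, 53.8% (46.3 to 61.2) of stress and 73.2% (67.0 to 78.8) of control microglia had an Nfkbia UMI, against 10.2% and 9.63% of PVN barcodes without a marker UMI, whose median depths were 5781.0 and 6002.0 UMIs. At full depth the shares in microglia were 75.8% and 88.3%. Without the cells that carried other cell types, the list median was -0.33, with 11 of 17 intervals below 0. In the microglia of 3000 to 6000 UMIs, 118 stress and 168 control cells, it was -0.25.

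Among the ligands that microglia secrete, the most highly counted chemokines differed little in summed CPM between the 2 libraries. Their levels before dissociation were not measured. Ccl4 was at 7830 CPM (7633 to 8030) in stress microglia and 7844 CPM (7681 to 8009) in control microglia. Ccl3 was at 5886 CPM (5716 to 6060) and 6210 CPM (6065 to 6357), a log2 ratio of -0.08 (-0.13 to -0.02). Both attract immune cells. Over 19 measured chemokine and cytokine genes the median log2 ratio was -0.17, and 14 genes were lower, beside 43.0% of all genes. Of these, 5 were lower by 1.5-fold or more, beside 3.89% of all genes, and 11 had an interval below 0, beside 6.71%. Leaving out the carriers of other cell types gave -0.08 (-0.13 to -0.03) for Ccl4 and -0.16 (-0.22 to -0.11) for Ccl3. The list median was then -0.27, with 13 of 19 genes lower. In the other PVN cells the median of the same genes was -0.28, at levels from 0.207 CPM for Osm to 31.5 CPM for Il18 in the stress library. In pituitary macrophage barcodes it was 0.23 over 11 measured genes.

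Among the cytokine genes, Il1b, Tnf and Il1a were lower in stress microglia, while Il18 and Osm had log2 ratios of 0.03 (-0.57 to 0.61) and 0.22 (-0.12 to 0.55). Il1b (ENSMUSG00000027398, chromosome 2, 129364570 to 129371139, minus strand), which encodes interleukin-1 beta, was at 95 CPM (74.5 to 119) in stress microglia and 213 CPM (187 to 242) in control microglia, a log2 ratio of -1.16 (-1.56 to -0.78). Its UMIs lay in 24 stress cells and 59 control cells, and the 5 cells with the most held 50.7% and 28.3% of them. After thinning, 5.49% (2.67 to 9.87) of stress and 14.7% (10.4 to 20.0) of control microglia had an Il1b UMI, against 13.2% and 25.5% at full depth. The thinned share was 0.0308% and 0.0623% in barcodes without a marker UMI. Tnf was at 560 CPM (508 to 615) and 749 CPM (700 to 802), a log2 ratio of -0.42 (-0.59 to -0.25), and Il1a, the sister of Il1b, had -0.17 (-0.30 to -0.03).

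The monocyte attractants Ccl2, Ccl7 and Ccl12 had log2 ratios of -0.29 (-0.44 to -0.14), -0.38 (-0.58 to -0.19) and -0.59 (-0.83 to -0.35). Leaving out the carriers of other cell types gave -0.47 (-0.63 to -0.31), -0.45 (-0.66 to -0.25) and -0.69 (-0.95 to -0.44), in the same order. Cxcl2, which attracts neutrophils, was at 1483 CPM (1398 to 1572) in stress and 1810 CPM (1732 to 1890) in control microglia. Its log2 ratio without the carriers was -0.51 (-0.62 to -0.40). Cxcl10, a chemokine induced by interferon, was at 75.5 CPM (57.3 to 97.6) and 137 CPM (116 to 160), a log2 ratio of -0.85 (-1.32 to -0.41). The 2 lowest ratios rested on few cells. Ccl5 had -1.51 with 100% of its 15 stress UMIs and 85.9% of its 64 control UMIs in 5 cells, and Cxcl1 had -1.37 with 93.8% and 75.8%. The transforming growth factor gene Tgfb1, which maintains the homeostatic state, had 0.17 (-0.02 to 0.36).

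Single cells varied far more than the sums of the libraries. Ccl3 and Ccl4 together ranged from 0 to 81230 CPM per stress cell and from 0 to 68952 CPM per control cell, with medians of 6785 and 10061 CPM. No UMI of either gene was found in 30 stress cells (16.5%) and 26 control cells (11.3%). The tenth of cells with the most, 18 stress and 23 control cells, held 39.6% and 35.4% of these UMIs. NF-kB target genes summed to a median of 4787 CPM per stress cell (quartiles 1135 and 11315) and 9357 CPM per control cell (quartiles 3516 and 13390). Cells at both ends were present in both libraries. Homeostatic sums were nearly level, with medians of 114467 CPM per stress cell and 114096 CPM per control cell. Cst3 alone made 60918 of the 108357 CPM of this list in stress and 63613 of 105881 CPM in control microglia. The homeostatic sums therefore mostly follow Cst3.

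Heat-shock genes summed to a median of 7741 CPM per stress cell (quartiles 5861 and 11107) and 5821 CPM per control cell (quartiles 4244 and 7563). The highest stress cell reached 39204 CPM and the highest control cell 15363 CPM. After thinning, 57.7% (50.2 to 65.0) of stress and 35.5% (29.3 to 42.0) of control microglia had an Hspa1a UMI. The shares were 29.9% and 24.9% in PVN barcodes without a marker UMI, which include cell types that use the gene themselves. At full depth 78.6% and 66.2% of the microglia had one.

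**Figure D5:**
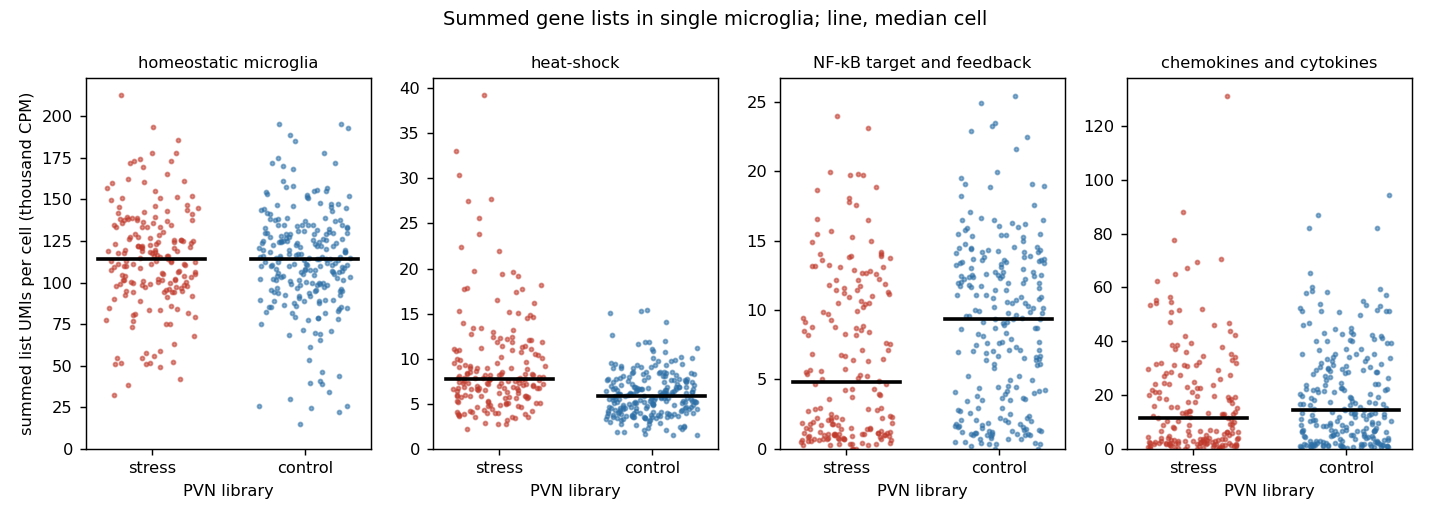
Summed UMIs of 4 gene lists per microglial cell, in units of 1000 CPM, for 182 stress cells (red, left in each panel) and 231 control cells (blue, right); points are cells, spread sideways at random, and black lines are medians. The NF-kB medians are 4787 and 9357 CPM. The homeostatic sums, which mostly follow Cst3, have medians of 114467 and 114096 CPM. The cells of a library share 1 pool of mice and are not replicates.

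Across single cells, the NF-kB and the chemokine sums varied together. Spearman's rho between the per-cell CPM sums was 0.72 over 182 stress cells and 0.70 over 231 control cells. Between the NF-kB and the immediate-early sums it was 0.66 in both libraries. Between the NF-kB and the homeostatic sums, the latter mostly Cst3, it was -0.35 and -0.21. Between the NF-kB and the heat-shock sums it was 0.17 and 0.10. The cells share a library and each sum is divided by the same total. The NF-kB sum also went with the total UMIs of the cell, with rho of 0.51 in stress and 0.22 in control cells, and with its mitochondrial percentage, with 0.42 and 0.32. The stress microglia had fewer UMIs per cell and a lower median mitochondrial share (1.49% and 1.96%), and their part in the NF-kB difference was not tested. After thinning, with 1271 genes of all still measured, the NF-kB list median was -0.38. Thinning evens the UMIs counted per cell, not the RNA content or mitochondrial share of a cell, so nothing about their part is read from it.

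Immediate-early genes, which neurons and glia induce within minutes of a stimulus, had a median of -0.15 over 21 measured genes, against -0.08 in the other PVN cells. Egr1 was at 419 CPM (375 to 468) in stress microglia and 643 CPM (597 to 691) in control microglia, a log2 ratio of -0.62 (-0.81 to -0.42). Ier2 had -0.60 (-0.82 to -0.39) and Junb, a member of the AP-1 factor, -0.33 (-0.40 to -0.26). Fos, another AP-1 gene, was at 1932 CPM and 2123 CPM, a log2 ratio of -0.14 (-0.23 to -0.04). Klf6, a zinc-finger factor gene, ran the other way at 0.46 (0.31 to 0.62), and Jund had 0.23 (0.15 to 0.31). Nr4a3, a nuclear receptor gene of the same class that was no member of the list, was at 13 CPM (6.24 to 23.9) and 39.1 CPM (28.4 to 52.5), a log2 ratio of -1.53 (-2.74 to -0.57).

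Glucocorticoid signalling was read from its receptors and from genes that the hormone is known to induce. Nr3c1, the glucocorticoid receptor gene, was at 87.2 CPM (67.6 to 111) in stress microglia and 124 CPM (105 to 147) in control microglia, a log2 ratio of -0.51 (-0.96 to -0.08). After thinning, 6.59% of stress and 8.66% of control microglia had an Nr3c1 UMI, below the 9.61% and 9.69% of PVN barcodes without a marker UMI, so no difference is read from the shares. At full depth the shares in microglia were 30.2% and 42.4%. The mineralocorticoid receptor gene Nr3c2 did not reach 50 UMIs. The other 6 measured genes of the receptor and cofactor list were higher in stress microglia, among them Crebbp, a coactivator gene, at 0.30 (-0.33 to 0.92), and none of their intervals excluded 0. The list median was 0.28, or 0.22 over 6 genes without the carriers of other cell types.

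Of 14 measured glucocorticoid-responsive genes, 6 were higher and 8 lower in stress microglia, with a median of -0.14. The kinase gene Sgk1 was at 536 CPM (486 to 591) in stress and 507 CPM (466 to 550) in control microglia. The anti-inflammatory mediator gene Tsc22d3 was at 187 CPM (158 to 221) and 188 CPM (163 to 215), and Fkbp5, a co-chaperone gene that dampens the receptor, at 36.5 CPM (24.2 to 52.7) and 39.1 CPM (28.4 to 52.5). Rgs2, a brake on G-protein signalling, was the highest with Txnip, both at 0.44. Per1, which is also a clock gene, was the lowest at -0.96 (-1.82 to -0.21), on 19 and 55 UMIs. The sign of this list was not stable: without the cells that carried other cell types its median was 0.10 over 12 genes.

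Only 5 of 17 circadian clock genes were measured, all of them lower in stress microglia, with a median of -0.55 and every interval reaching 0. The clock repressor genes Nr1d2 and Nr1d1 had -0.78 (-1.68 to 0.01) and -0.55 (-1.53 to 0.31), and the clock output gene Dbp -0.66 (-1.45 to 0.05). Without the cells that carried other cell types, 3 genes stayed measured, 1 of them higher, and their median was -0.14. Nr1d1 and Dbp, then under 50 UMIs, had 0.04 (-1.04 to 1.05) and 0.07 (-0.88 to 0.96). The cold-inducible RNA-binding genes Cirbp and Rbm3 had -0.60 (-1.11 to -0.12) and -0.35 (-0.66 to -0.04), and -0.26 and -0.33 in the other PVN cells.

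Genes of the mitochondrial genome, which encode subunits of the respiratory chain, were lower in stress microglia in 11 of 11 measured cases, with a median of -0.33 in microglia and 0.05 in the other PVN cells. The difference between these cell groups was not tested. mt-Atp6, a subunit of the ATP synthase, was at 5118 CPM (4959 to 5280) in stress microglia and 6524 CPM (6376 to 6675) in control microglia. mt-Co2, a subunit of cytochrome oxidase, was at 2013 CPM (1914 to 2116) and 2616 CPM (2522 to 2712), a log2 ratio of -0.38. The respiratory chain subunits encoded in the nucleus had a median of 0.01 over 18 genes, with Cox4i1 at -0.31 (-0.47 to -0.16) and Uqcrh at -0.34 (-0.57 to -0.11). In pituitary macrophage barcodes the mitochondrial genes also had a median of -0.33, and in adrenal ones -0.15.

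Genes of the disease-associated state, a programme that microglia take on beside amyloid and dying cells, had a median of -0.04 over 12 of 20 genes measured, and its sign turned in 7 of 16 alternatives (-0.17 to 0.15), 0.06 without the carriers of other cell types among them. Its late genes Lpl, Cst7, Itgax, Spp1 and Gpnmb did not reach 50 UMIs. Apoe, the lipid carrier gene, was at 1570 CPM (1483 to 1661) in stress microglia and 2022 CPM (1940 to 2107) in control microglia, a log2 ratio of -0.36, but 5 cells held 50.9% of these UMIs in stress and 54.2% in control. With the carriers of other cell types left out, Apoe had -0.61 (-0.73 to -0.49), on 798 UMIs in stress and 1731 in control microglia. Ccl6, a myeloid chemokine gene, was at 95 CPM (74.5 to 119) and 159 CPM (137 to 184), a log2 ratio of -0.74 (-1.16 to -0.34). Lyz2, the lysozyme gene, was at 483 CPM (435 to 535) and 383 CPM (348 to 421).

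Interferon response genes were scarce, with 5 of 21 measured. Ifitm3, which blocks virus entry and is also strongly expressed by endothelium, was at 18.2 CPM (9.96 to 30.6) in stress microglia and 56.0 CPM (43.0 to 71.6) in control microglia. Its 5 highest control cells held 63.5% of its UMIs, in the library where 3 cells held most endothelial UMIs. When the carriers of other cell types were left out, 4 interferon genes stayed measured, 2 of them higher and 2 lower. Antigen presentation genes had a median of 0.09 over 13 measured genes, and 0.02 over 11 without those carriers. B2m, the light chain of class I molecules, was at 3558 CPM (3426 to 3694) and 3618 CPM (3508 to 3731).

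Lipid and cholesterol genes, 5 higher and 5 lower, had a median of 0.05, and of -0.01 over 8 genes without the carriers of other cell types. Of the 182 stress and 231 control cells, 179 and 224 had no UMI of Mki67, Top2a, Cdk1, Birc5 or Ube2c, which summed to 14 UMIs in stress and 26 UMIs in control microglia. At this depth the counts do not bound the share of dividing cells. The 4 measured proliferation genes had a median of -0.02.

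The 12 highest and 12 lowest genes by the interval bound nearest 0 also held genes of none of the 21 lists. Among the higher ones, Sox4, a developmental transcription factor gene, was at 492 CPM (444 to 544) in stress microglia and 295 CPM (264 to 329) in control microglia, a log2 ratio of 0.74 (0.52 to 0.95). BC017643 had 1.22 (0.78 to 1.68), Gm13889 1.42 (0.87 to 2.0), Tpbgl 1.40 (0.63 to 2.23), and 4833420G17Rik and the pseudogene Gm6483 both 1.49 (0.68 to 2.39). After thinning, Sox4 had 0.48, below its main interval, Gm13889 0.11 and 4833420G17Rik 0.89. Without the carriers of other cell types Sox4 had 0.58. Scg2, a secretory granule protein gene of neurons and endocrine cells, had 1.12 (0.64 to 1.63) in microglia, at 115 CPM in stress and 52.4 CPM in control, while in the other PVN cells it was at 1017 and 956 CPM. Whether the Scg2 UMIs came from the microglia was not tested.

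Among the lower ones, Phlda1 was at 40.4 CPM (27.4 to 57.3) in stress and 89.8 CPM (73.1 to 109) in control microglia, a log2 ratio of -1.14 (-1.78 to -0.56). Zmat5 had -1.15 (-1.91 to -0.48) and the long noncoding RNA Gm10076 -0.71 (-0.96 to -0.46), or -0.20 after thinning. Ptn, a growth factor gene of glia and vessels, had -1.55 (-2.04 to -1.11), Tsc22d1 -0.87 (-1.29 to -0.47) and Bsg, a glycoprotein gene that is abundant at the blood-brain barrier, -0.73 (-0.90 to -0.57). For these 3 the 5 highest control cells held 47.6%, 49.5% and 49.1% of the control UMIs. Without the cells that carried other cell types, Ptn had -1.03, Tsc22d1 -0.17 and Bsg 0.21, so the direction of Bsg turned.

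Oxt, the gene of the hormone oxytocin made by PVN neurons, was at 171 CPM (143 to 202) in stress microglia and 316 CPM (284 to 351) in control microglia, and at 2183 and 4767 CPM in the other PVN cells. After thinning, 18.1% of stress and 27.3% of control microglia had an Oxt UMI, against 13.8% and 25.1% of barcodes without a marker UMI, and 51.1% and 73.2% of the microglia at full depth. The share in microglia thus lay close to that of cells in general in each library and is not read as expression. Sst, another neuropeptide gene, had 75 UMIs in stress and 55 in control microglia, a log2 ratio of 0.99 (0.48 to 1.53), and -0.79 in the other PVN cells. Its thinned shares were 9.89% and 4.76%, against 10.1% and 8.82% in barcodes without a marker UMI.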

How the data were processed

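Single-cell RNA libraries of PVN, pituitary and adrenal were made from 1 pool of mice per tissue and condition, 6 libraries in all. Raw UMI counts by gene and cell barcode were deposited as matrices. Cell Ranger 2.1.1, mm10 and Scanpy are named in the submitters' processing notes, the last without a role. Strand, cell calling and the counting annotation are not given in the sources used here. Coordinates are from GENCODE release 21 for mouse (GRCm38), matched by gene ID for 27722 of 27998 genes.

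Microglia were selected by the fixed UMI limits of the report, with no removal of doublets. UMIs were summed per library and divided by their total (CPM, exact Poisson intervals). Ratios have 0.5 UMI added and exact conditional binomial intervals, and shares have Clopper-Pearson intervals. Calculations used Python 3.11.15, numpy 2.4.6, scipy 1.17.1 and pandas 2.3.3, and the ratio code was tested on simulated data. With 1 library per group there are no p-values. Cells were thinned to 1000 UMIs to compare shares of cells. Alternatives changed the selection limits, left out cells with RNA of other types, weighted cells equally, rescaled, added 5 UMIs, set the minimum at 100 or 1 UMI, thinned, or subtracted the ratio in other PVN cells.

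Named genes were the 12 highest and 12 lowest of the measured genes by the interval bound nearest 0, provided that 5 cells held at most 50% of the UMIs of the higher library and at least 10 cells had a UMI there. The highest and lowest gene of each list and examples from the lists were also named. The members, the 21 gene lists and the 15 marker lists were chosen with earlier results of these data known, and the higher heat-shock genes in microglia were among those results. The results of a few genes are not reported here.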

Additional observations from a re-analysis of the deposited data

Results flagged for a closer look

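For some gene lists the median log2 ratio of stress over control in PVN microglia had the opposite sign to that in other cells of the study. These differences were not tested, since each condition was 1 pool. Homeostatic genes had 0.15 in microglia and -0.11 in pituitary macrophage barcodes. Chemokine and cytokine genes had -0.17 in microglia and 0.23 in pituitary macrophage barcodes. Immediate-early genes had -0.15 in microglia, 0.26 in pituitary and 0.13 in adrenal macrophage barcodes. Corticosteroid receptor and cofactor genes had 0.28 in microglia and -0.14 in pituitary macrophage barcodes, over 7 and 5 measured genes. Interferon response genes had -0.18 in microglia, against 0.29 in the other PVN cells, 0.21 in pituitary and 0.59 in adrenal macrophage barcodes, but only 5 of them were measured in microglia and the sign turned when cells that carried other cell types were left out (0.13).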

How the results depend on the processing

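The shares of microglia stayed within their intervals under every alternative to the selection limits. The count of genes 1.5-fold or more higher, 269, was 178 in microglia of 3000 to 6000 UMIs, 79 with at least 100 UMIs, 2615 with no minimum beyond 1 UMI and 73 after thinning. The count lower, 193, was 118 without carriers of oligodendrocyte, astrocyte, endothelial or ependymal markers and 119 without the carriers of other cell types. It was 119 at 3000 to 6000 UMIs, 120 with 5 UMIs added and 76 with at least 100 UMIs. With no minimum it was 3479, and after thinning 61. Fewer genes were tested in the settings with fewer cells or UMIs. The heat-shock median ranged from 0.31 to 0.64, NF-kB from -0.38 to -0.15, lysosome from 0.10 to 0.23 and the unfolded protein response from 0.22 to 0.42. With the ratio of other PVN cells subtracted, the homeostatic median was -0.01, chemokines and cytokines 0.10, Il1b 0.51, Oxt 0.24 and Ccl5 0.47; Il1b was at 0.242 and 0.804 CPM in those cells. The interferon median was 0.05 with a mitochondrial limit of 10%, 0.14 and 0.13 without the 2 sets of carriers, and 0.10 at 3000 to 6000 UMIs. The glucocorticoid-responsive median was 0.03 with neuronal markers under 3 UMIs, 0.07 and 0.10 without the 2 sets of carriers, 0.14 at 3000 to 6000 UMIs, 0.05 with at least 100 UMIs and 0.13 after thinning. The cold-inducible median was 0.00 after thinning, on 1 gene, and the mitochondrial median -0.43 with neuronal markers under 3 UMIs and -0.17 at 3000 to 6000 UMIs. Bsg was at 0.17 and 0.21 without the 2 sets of carriers and at 0.24 at 3000 to 6000 UMIs. The causes were not tested. Of 907 values of 62 named genes under alternatives, 855 stayed within the main interval. No paired analysis was possible because each condition was 1 library. The alternatives that leave out the carriers of other cell types or keep 3000 to 6000 UMIs were chosen after seeing the data.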
